A study of Mus musculus with 3 samples.

Results

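The interleukin-1 receptor-associated kinases (IRAK) and the tumour necrosis factor receptor-associated factors (TRAF) carry signals from Toll-like, interleukin-1 and tumour necrosis factor receptors to NF-kB and MAP kinases. The set described here is the 4 Irak genes, 5 Traf genes (Traf1, Traf2, Traf3, Traf5 and Traf6) and Tollip, chosen by gene name. That is 10 of 55536 annotated genes, with 69 annotated isoforms. All 10 were found in the deposited tables by symbol.

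RNA was measured in the chromatin fraction, the RNA that stays bound to chromatin when nuclei are extracted and that holds many transcripts still being made or spliced. The cells were primary macrophages grown from the bone marrow of C57BL/6J mice, with no gene alteration named. All 3 libraries belonged to 1 condition: Lipid A at 100 ng/ml for 12 h, a washout of 12 h, and then Lipid A at 100 ng/ml again for 120 min. Ribosomal RNA had been depleted. The RNA input was 1 µg in replicate 1, 250 ng in replicate 2 and 500 ng in replicate 3. The labels number them as biological replicates but give 1 donor entry for all 3, and the ages and sexes of the animals were not collected. The SD values may therefore be technical. Untreated cells and cells stimulated only once were not analysed here, so the values are levels and not responses.

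Lipid A is the part of bacterial lipopolysaccharide that Toll-like receptor 4 recognises. The adaptor MyD88 then gathers IRAK4, IRAK2 and IRAK1 into a complex, which engages TRAF6, a ubiquitin ligase that activates the kinase TAK1. IRAK3, also called IRAK-M, and Tollip are known as restraints on this route in macrophages, and repeated exposure to lipopolysaccharide is the classical setting in which macrophages become less responsive.

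The libraries summed to 10293545, 17820066 and 17548564 expected counts, in the order of the replicate numbers, of which the 10 genes held 0.143%, 0.116% and 0.107%. Replicate 1 stood apart in fragment size. The difference between annotated and effective transcript lengths implied a mean fragment of 151 bases there, against 258 and 252 bases in replicates 2 and 3. All 8 macrophage markers examined reached 1 TPM (a library's transcript level per length, scaled to a fixed total) in every library, and their TPM summed to between 1004 and 1529. Among 34 markers of 7 other cell types, 1 erythroid gene did so. The 5 T cell markers summed to between 0.5 and 0.89 TPM, and neither the B cell factor Pax5 nor the T cell gene Cd3e had a count in any library. Fewer cells of a type and less RNA per cell cannot be told apart in bulk RNA.

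Part of the reads of these genes were assigned to isoforms that hold an intron, so the exon-intron junctions that such isoforms read through are shown before the levels. Each line holds 12 exon bases in lower case and 18 intron bases in capitals, on the gene's strand, in mm10. They are the 5′ ends of the introns that the leading intron-holding isoform of each of 8 genes contains in whole or in part.

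Irak1-215: agactgaaggagGTAGGTGTAACATTGGGG
Irak2-208: ttctagacacagGTGCTCTCCTCCCCTCCT
Irak3-204: caacgtttccagGTAAATGACCTGAGAGCT
Irak4-203: agtaatggcaacGTAAGTGTAGATTTTCCC
Traf1-208: tgagaacctgagGTGAGGGGACAAAGCCAA
Traf2-203: gtggacctggagGTGCGCTGGGCGGGGTGG
Traf5-203: tgcactgtcaagGTAAGCTGTGGGTCACCT
Tollip-205: atgtcctacacgGTGAGTTCACTGTCCGGA

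These windows lie at chrX:74022455-74022484 (minus strand), chr6:113665835-113665864 (plus), chr10:120165075-120165104 (minus), chr15:94556680-94556709 (plus), chr2:34957941-34957970 (minus), chr2:25530269-25530298 (minus), chr1:192057122-192057151 (minus) and chr7:141890684-141890713 (minus), in the order printed. Every intron read through at its 5′ end in an annotated intron-holding isoform of these genes, 19 of 19, begins with GT, the usual splice donor. These are annotated introns of coding isoforms, and some share a donor. The count therefore describes the annotation and not these libraries, and no share over all annotated introns was taken.

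Traf1 and Irak2 were the most abundant of the 10, Irak4 the least, and all 10 were expressed. Each had at least 1 TPM in every library, as did 21.7% of all annotated genes and 42% of 22028 protein-coding genes. In 9 of 10 the level exceeded that of the median protein-coding gene among those expressed, library by library, beside 18.5% of all protein-coding genes and 44% of the 9245 expressed protein-coding genes. That median was 9.95, 13.92 and 12.05 TPM in replicates 1, 2 and 3. Irak4 was the exception.

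**Figure D1:**
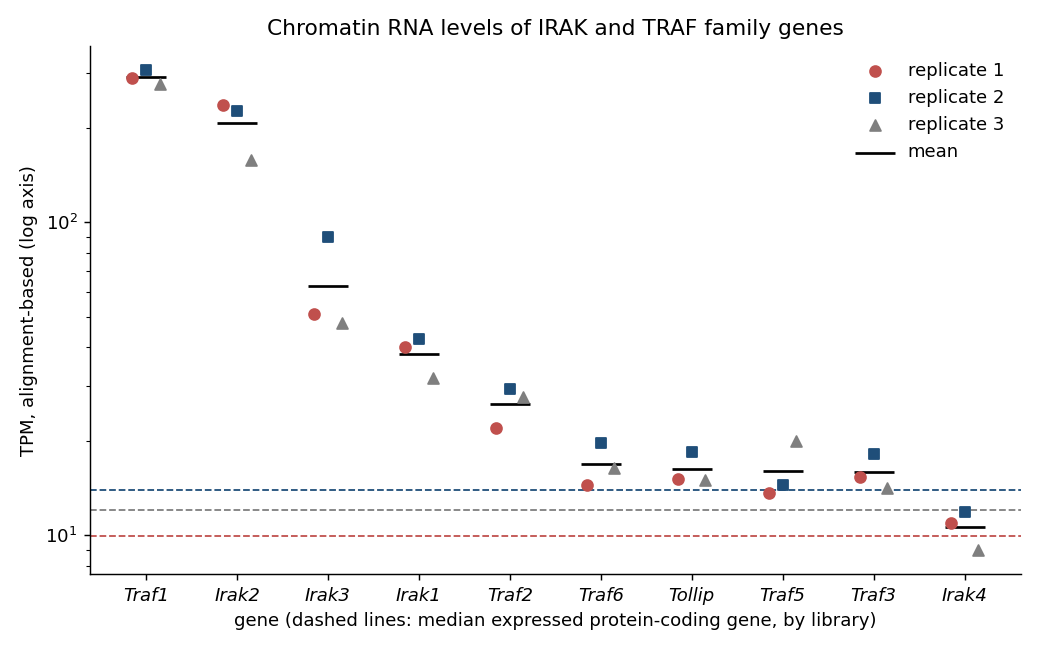
Level of each gene in TPM (log axis) in the 3 libraries, with points for libraries, a bar for the mean and dashed lines for the median expressed protein-coding gene of each library. Traf1 and Irak2 lie above 150 TPM in all 3 libraries, and Irak4 lies near the dashed lines.

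Irak4 (chr15:94543643-94581815, plus strand) encodes the kinase that acts nearest to MyD88. It stood at 10.94, 11.92 and 8.97 TPM in replicates 1, 2 and 3 (10.6 ± 1.5, SD, n = 3). This was above the median gene in replicate 1 and below it in replicates 2 and 3.

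Irak1 (chrX:74013914-74023918, minus strand), the kinase that IRAK4 phosphorylates, stood at 39.94, 42.40 and 31.95 TPM (38.1 ± 5.46, SD, n = 3). Its lowest library was replicate 3, and every Irak1 value exceeded every Irak4 value.

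Irak2 (chr6:113638467-113695026, plus strand), which can stand in for IRAK1 in sustained signalling, was the highest of the family at 237.13, 226.56 and 158.54 TPM (207.4 ± 42.7, SD, n = 3). Replicate 3 was the lowest library, and it still exceeded every value of the other Irak genes. On the log2 scale, with 0.1 added to each TPM, Irak2 exceeded Irak1 by 2.43 ± 0.13 and Irak4 by 4.26 ± 0.15 (SD, n = 3). These correspond to 5.39-fold and 19.2-fold. The difference from Irak1 was 3.14 in a second, read-based quantification of the same libraries and 1.93 when only protein-coding isoforms were summed. For Irak4 the same alternatives gave 4.47 and 3.10.

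Irak3 (chr10:120141648-120202130, minus strand), the restraining member, stood at 50.89, 89.79 and 47.67 TPM (62.8 ± 23.4, SD, n = 3). Replicate 2 was well above the other libraries, which made Irak3 the most variable of the 10 on this scale, with a coefficient of variation of 37.3%. Irak3 exceeded Irak4 by 2.50 ± 0.36 and lay below Irak2 by 1.76 ± 0.44 on the log2 scale (SD, n = 3). Over protein-coding isoforms only, Irak3 exceeded Irak4 by 1.75 and lay below Irak2 by 1.35. By read-based TPM these differences were 2.25 and 2.22. Tollip (chr7:141874813-141918507, minus strand), an adaptor that binds IRAK1, stood at 15.19, 18.53 and 15.07 TPM (16.3 ± 1.96, SD, n = 3). The log2 difference of Tollip minus Irak1 was -1.22 ± 0.16 (SD, n = 3), so Irak1 was 2.33-fold higher. Over protein-coding isoforms only it was -0.58.

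Among the Traf genes, Traf1 (chr2:34941750-34961772, minus strand) led by a wide margin. TRAF1 lacks the RING domain that gives other TRAF proteins ubiquitin ligase activity, it binds TRAF2, and its gene is a known NF-kB target. Its level was 288.27, 306.78 and 277.15 TPM (290.7 ± 15, SD, n = 3), with the smallest coefficient of variation of the 10 at 5.15%. Traf2 (chr2:25517982-25546940, minus strand), which works at tumour necrosis factor receptors, stood at 21.96, 29.46 and 27.63 TPM (26.4 ± 3.91, SD, n = 3). Traf1 exceeded Traf2 by 3.47 ± 0.21 on the log2 scale (SD, n = 3), or 11.1-fold, and by 2.80 over protein-coding isoforms only.

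Traf6 (chr2:101678429-101701669, plus strand), the ligase that IRAK complexes engage, stood at 14.44, 19.73 and 16.46 TPM (16.9 ± 2.67, SD, n = 3). Traf3 (chr12:111166370-111267153, plus strand), which acts in interferon induction and restrains the NF-kB-inducing kinase, stood at 15.34, 18.18 and 14.17 TPM (15.9 ± 2.06, SD, n = 3). Their values interleaved. The difference of Traf6 minus Traf3 was 0.08 ± 0.15 on the log2 scale (SD, n = 3), positive in 2 of 3 libraries. It turned to -0.63 in the read-based quantification described below and to -1.18 when only protein-coding isoforms were summed.

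Traf5 (chr1:191997205-192092559, minus strand), the closest relative of TRAF2 in function, stood at 13.62, 14.54 and 20.06 TPM (16.1 ± 3.48, SD, n = 3). Replicate 3 was its highest library. Traf2 exceeded Traf5 by 0.72 ± 0.28 on the log2 scale in these alignment-based values (SD, n = 3), and the difference turned to -0.94 in the read-based quantification. Over protein-coding isoforms only it was 1.46.

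The differences within each library for the 8 pairs above were put to a two-sided exact sign-flip test, adjusted by Benjamini-Hochberg over the 8. In 7 pairs the sign was the same in 3 of 3 libraries, with an exact p = 0.25 and adjusted p = 0.286, and for Traf6 against Traf3 the p was 0.5. With 3 libraries the smallest p this test can give is 0.25, so no pair could pass a threshold of 0.05. In the order of mean levels from Traf1, Irak2, Irak3, Irak1, Traf2, Traf6, Tollip, Traf5 and Traf3 to Irak4, neighbours from Traf6 to Traf3 overlapped in range. The other 6 steps had the same order in 3 of 3 libraries with no overlap.

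The spread between libraries depended on the scale. In TPM, 8 of 10 genes were highest in replicate 2. In CPM, counts scaled to a fixed library total, which are not divided by length and are compared here only within a gene, 8 of 10 were highest in replicate 1. Over 9245 expressed protein-coding genes the median offset of replicate 1 from the other libraries was -0.36 on the log2 TPM scale and 0.004 on the log2 CPM scale. How many of those genes were highest in each library was not counted, so the 8 of 10 cannot be set beside such a share.

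The CPM of Traf1 was 630, 444 and 460 in replicates 1, 2 and 3, so replicate 1 exceeded the mean of the others by 0.48 on the log2 scale although TPM differed little. As a multiple of each library's median gene in TPM, Traf1 was at 29.0, 22.0 and 23.0, and replicate 1 was again the highest. Irak2 was highest in replicate 1 on both scales, with CPM of 342, 258 and 214 and multiples of the median gene of 23.8, 16.3 and 13.2. For Traf2 the SD of the log2 level was 0.22 in TPM and 0.023 in CPM. Irak3 had CPM of 109, 121 and 73.6, with replicate 3 the lowest and replicate 2 no longer standing apart from replicate 1. Fragment size and RNA input moved with replicate 1, and their part in these offsets was not tested.

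**Figure D2:**
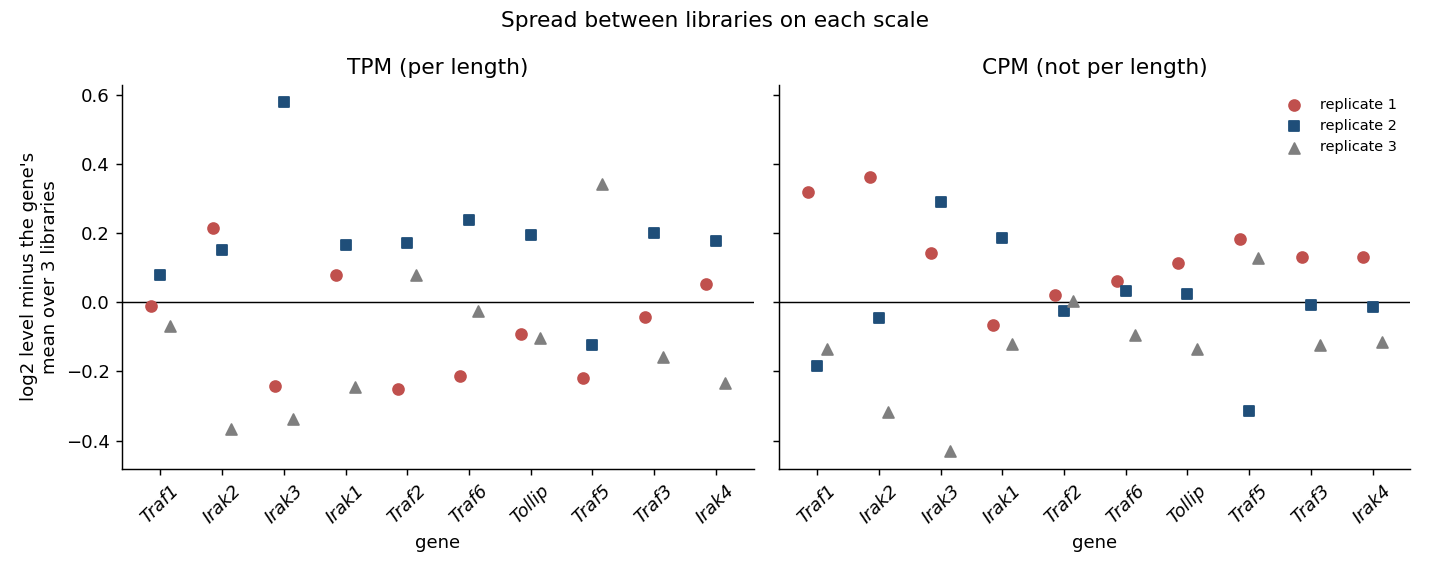
Log2 level of each gene in each library minus that gene's mean over the 3 libraries, in TPM (left) and CPM (right). Replicate 2 is the highest point for 8 of 10 genes on the left, and replicate 1 for 8 of 10 on the right.

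On the CPM scale the SD of log2(CPM + 0.5) had a median of 0.145 over the 10 genes, beside 0.287 over 17110 genes with at least 10 counts in all and 0.224 over the 4964 genes with a mean count at least that of the lowest member. Irak2 (0.34) and Irak3 (0.38) were the 2 of 10 above the median gene, beside 50% of genes by construction. Without replicate 1 the count was 4 of 10. Against the genes at least as abundant, 4 of 10 were above the median SD, Traf1 (0.28) and Traf5 (0.27) in addition. Traf2 had CPM of 81.5, 79.0 and 80.5. None of the 10 had replicate 1 beyond 1 log2 unit of the mean of replicates 2 and 3, beside 9.94% of genes (6.98% higher and 2.96% lower), or 3.65% of genes as abundant as the members. Without replicate 1 the median SD was 0.101 for the 10 genes and 0.153 for all genes.

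Isoforms annotated as retained_intron, called intron-holding here, made up part of 9 of these 10 genes. GENCODE marks 18 of the 69 isoforms as retained_intron, a transcript model that keeps intron sequence, and 39 as protein-coding. Some processed transcripts also hold bases outside the exons of coding isoforms, such as 1450 of the 1949 bases of Traf6-202. Those are not part of the retained_intron shares below. In chromatin RNA a read inside an intron can come from a nascent transcript that has yet to be spliced, and these tables do not tell that from a retained intron. A retained_intron isoform led its gene by mean TPM in 6 of 10 genes: Irak1, Irak2, Irak3, Traf1, Traf2 and Traf5. Over expressed protein-coding genes, with or without such an isoform, that share was 30.2%, and 9 of the 10 have one. In the read-based table the count was also 6 of 10, beside 32.3%. Many of these models are short, which raises their TPM for a given number of reads, and by mean share of expected counts 3 of 10 genes were led by one, beside 19.9%. The genes at large led by one numbered 2792, 2980 and 1834 in these 3 measures, and only 5967 expressed protein-coding genes have one. The percentages, taken over 9236 genes, are therefore too low a reference for the 9 genes that have one.

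The share of TPM on retained_intron isoforms was 63.4% ± 10.1 for Traf5, 57.3% ± 4.80 for Irak1 and 52.6% ± 3.82 for Irak2 (SD, n = 3). It was 42.2% ± 14.6 for Irak3, 42.0% ± 0.83 for Traf1, 39.8% ± 2.07 for Traf2, 38.1% ± 1.5 for Tollip, 36.1% ± 13.7 for Irak4 and 8.72% ± 5.29 for Traf3. No such isoform of Traf6 is annotated. Mean read-based shares were 87.8% for Traf5, 50.9% for Tollip, 49.7% for Traf2, 31.9% for Traf1 and 23.8% for Traf3. For the Irak genes the means moved less. The median over these 9 genes was 42.0%, beside 47.0% over 5967 expressed protein-coding genes that have such an isoform. In 3 of 9 the share exceeded the median gene in every library, beside 38.2% of all such genes. In the read-based table the order turned, with a median of 49.0% over the 9 genes and 44.9% over genes at large, and 5 of 9 above the median gene in every library beside 41.2%. By expected counts the medians were 28.8% and 31%.

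**Figure D3:**
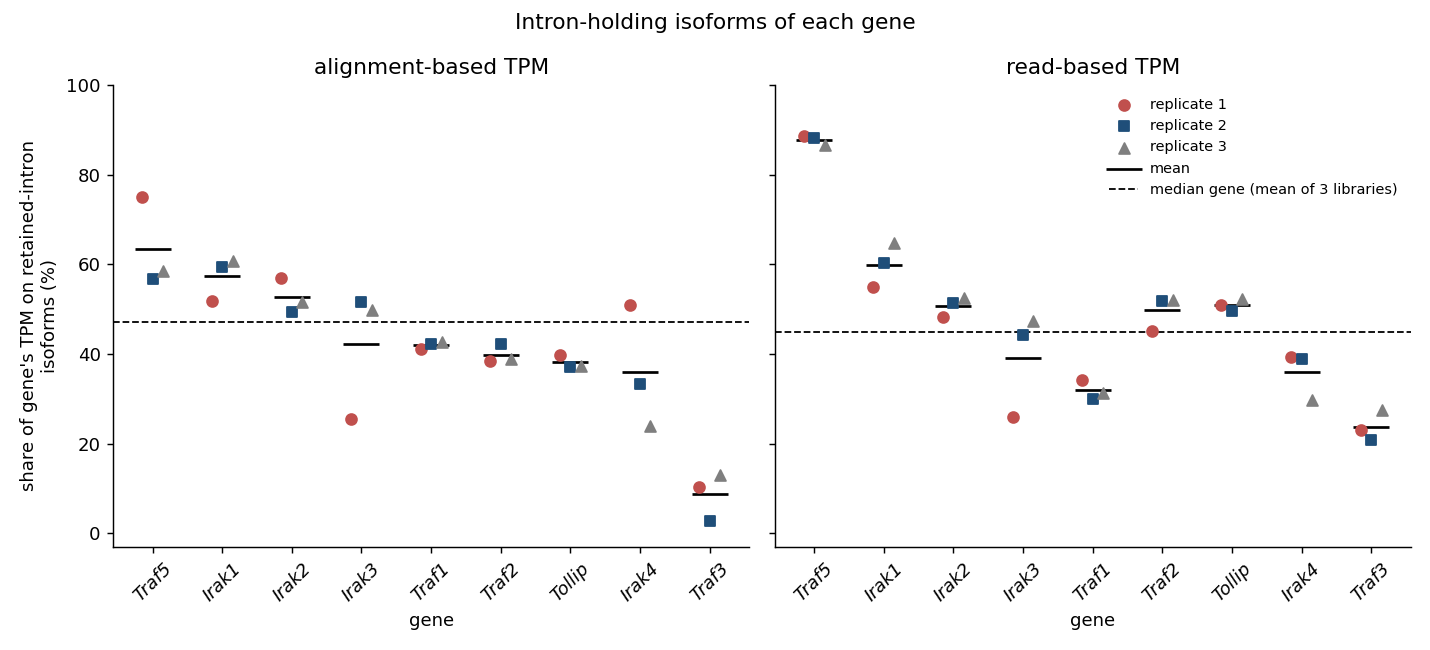
Share of each gene's TPM on retained_intron isoforms in each library, from alignment-based (left) and read-based (right) tables, with bars for means and a dashed line for the median gene. The share of Irak3 is lower in replicate 1 than in the other libraries in both panels, and Traf5 has the highest mean in both, although on the left Irak1 exceeds it in replicates 2 and 3.

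In Traf1 the intron-holding share was steady between libraries in alignment-based TPM, but not between measures. Its mean was 42.0% there, 31.9% in read-based TPM and 51.6% of expected counts. Traf1-208 was the leading isoform at 86.19, 98.16 and 89.12 TPM, or 31.4% ± 1.26 of the gene (SD, n = 3). Its 1980 bases include the whole 1678-base intron whose 5′ end is printed above. Traf1-206, which holds 2900 bases outside the exons of the coding isoforms, carried a further 10.6% ± 0.498.

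Traf1 isoforms also fell into groups by start. Traf1-207, Traf1-208 and Traf1-209 begin between chr2:34958136 and chr2:34958163 on the minus strand, inside the gene, and together held 56.9%, 51.1% and 49.5% of its TPM (52.5% ± 3.85, SD, n = 3). The 5 isoforms that begin between chr2:34961562 and chr2:34961772 held 41.1%, 42.4% and 43.7% (42.4% ± 1.28, SD, n = 3). Read-based shares were 57.0% ± 2.14 for the inner starts and 40.1% ± 2.34 for the outer ones. The tables hold no reads at start sites, so these are shares of annotated models and not measured starts.

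Irak2 was led by Irak2-208, a 631-base model at 60.14, 57.74 and 46.92 TPM that runs 163 bases into a 4352-base intron. The coding isoform Irak2-201 stood at 30.65, 60.16 and 43.38 TPM, and Irak2-202 at 21.36, 9.59 and 9.37 TPM. Irak2-202 lacks a 144-base exon of Irak2-201 at chr6:113665703-113665846, the exon at whose end the Irak2 sequence above begins its intron. Replicate 1 was the lowest library for Irak2-201 and the highest for Irak2-202, and all 3 coding isoforms together summed to 52.0, 69.9 and 52.8 TPM.

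In Irak3 the isoforms changed with the library. The intron-holding Irak3-204 stood at 12.92, 46.30 and 23.71 TPM and took 25.4%, 51.6% and 49.7% of the gene. It runs 117 bases into an 18463-base intron. The coding Irak3-201 stood at 8.64, 29.75 and 16.82 TPM. The other coding isoform, Irak3-205, was at 14.18 TPM in replicate 1 and listed at 0 in replicates 2 and 3. The read-based table also placed its highest level in replicate 1, at 15.7 TPM, but gave 5.90 and 3.62 TPM in the others. Irak3-205 has a 122-base first exon in place of the 333-base one of Irak3-201, which also runs 17 bases further at its 3′ end. Irak3 overlaps Tmbim4 on the opposite strand (86.4 ± 15.7 TPM, SD, n = 3). The overlap covers the whole 122-base exon and part of the 333-base one. Of the 31-base words of Irak3-205, 92 also occur in transcripts of 1 other gene, starting at its 5′ end, as do 40 of those of Irak3-201. Strand use in counting is not stated, so reads of either exon within the overlap cannot be told apart from those of Tmbim4.

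In Irak4 the intron-holding Irak4-203 took 51.0%, 33.2% and 24.0% of the gene by alignment, so its share was highest in replicate 1, where that of Irak3-204 was lowest. It stood at 5.58, 3.96 and 2.15 TPM. Read-based shares were 39.2%, 38.8% and 29.6%, nearly equal in replicates 1 and 2. Read-based TPM was 6.18, 6.86 and 3.72, highest in replicate 2, so the peak in replicate 1 depended on the quantification. Irak4-202, at 3.56, 5.43 and 5.27 TPM, ends in a 1928-base exon that overlaps Twf1 on the opposite strand (15.7 ± 3.11 TPM, SD, n = 3), so its share carries the same doubt.

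Irak1 had 22 isoforms and a different leading one in each library: Irak1-214 in replicate 1, Irak1-204 in replicate 2 and Irak1-206 in replicate 3. Irak1-204 stood at 7.18, 13.64 and 0 TPM, and Irak1-206 at 0, 0.42 and 9.92 TPM. These isoforms of 3825 and 3835 bases differ by 4 bases at the 3′ end, 3 bases at the 5′ end and 3 bases at an acceptor inside the gene. The acceptor windows, with 18 intron bases in capitals before 12 exon bases in lower case, show the pair of AG ends that lie 3 bases apart.

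Irak1-204 acceptor: CATGGTCTCTTCCAGCAGtcaagcccagag
Irak1-206 acceptor: GTCCATGGTCTCTTCCAGcagtcaagccca

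They lie at chrX:74022650-74022679 and chrX:74022653-74022682 on the minus strand, and end introns of 187 and 184 bases. Summed over the isoforms that use either, the 184-base intron took 24.3%, 37.3% and 99.3% of the TPM in replicates 1, 2 and 3. Read-based shares were 47.7%, 60.8% and 97.6%, so replicate 3 stood apart in both. The isoforms on each side differ elsewhere too, and the tables hold no counts of reads across the junction. The bounds that the quantification program gives for Irak1-204 and Irak1-206 in replicate 3, 0.0086 to 6.83 TPM and 1.72 to 9.62 TPM, overlap.

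**Figure D4:**
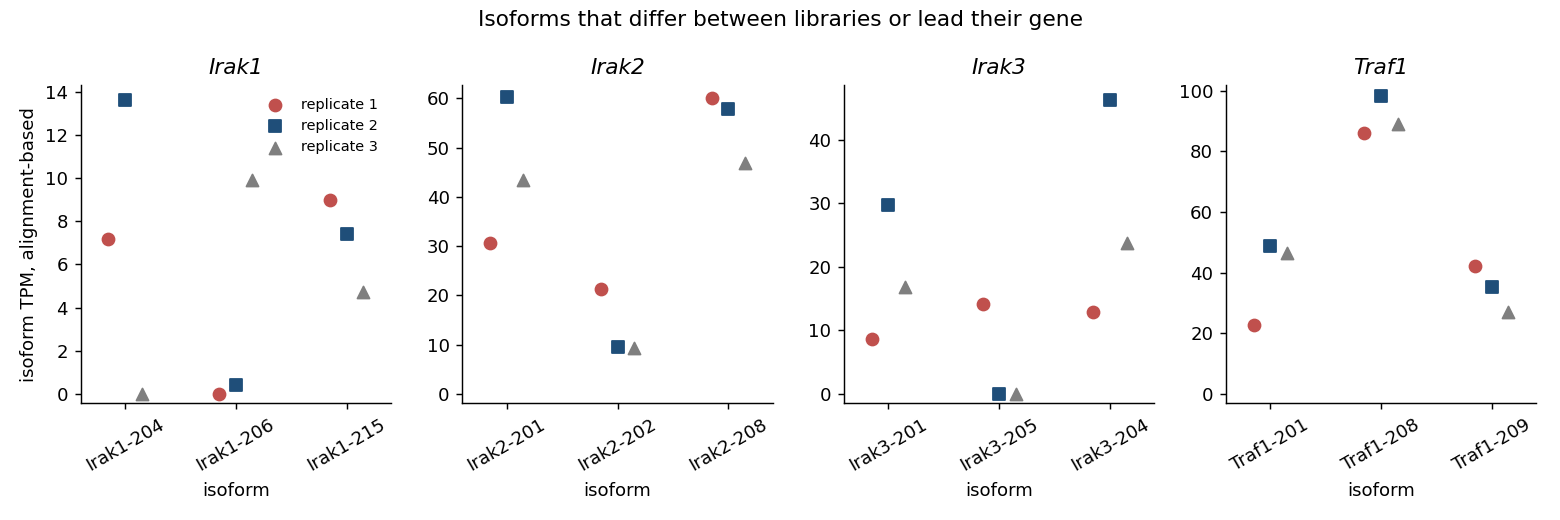
TPM of selected isoforms of Irak1, Irak2, Irak3 and Traf1 in each library, alignment-based. Irak1-204 and Irak1-206 exchange places in replicate 3, Irak3-205 is above 0 only in replicate 1, and Traf1-208 varies little.

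In Traf2 the leading Traf2-203 held the whole 1980-base intron shown above, at 8.43, 12.43 and 10.73 TPM. In Tollip, Tollip-205 reached 6.05, 6.89 and 5.62 TPM, beside 7.51, 10.78 and 8.47 TPM for the coding Tollip-201. Traf6 was led by its coding isoform Traf6-201 at 5.31, 7.70 and 6.10 TPM, with the other 62.4% ± 1.24 on 2 processed transcripts. In Traf3 the coding isoforms held 91.3% ± 5.29 (SD, n = 3), shared between Traf3-201 of 7060 bases at 5.65, 9.37 and 6.77 TPM and the 645-base Traf3-204 at 6.43, 8.02 and 4.60 TPM. By read-based TPM the coding isoforms of Traf3 held 76.2% ± 3.34 (SD, n = 3).

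The same libraries had been quantified in a second way, directly from the reads, and Traf5 was the gene of the 10 whose level depended most on that choice. Its read-based TPM was 36.3, 71.9 and 68.4, above the alignment-based value in each library and 3.54-fold on average, beside 1.31-fold for the median expressed protein-coding gene. Traf5 lay at the 97.2 percentile of those genes. It was the 1 of 10 with at least a 2-fold excess in every library, beside 9.41% of expressed protein-coding genes.

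The excess lay in Traf5-203, an intron-holding isoform of 2084 bases, 1763 of them outside coding exons. It stood at 28.3, 61.5 and 55.9 TPM in the read-based table and at 5.35, 5.33 and 7.05 TPM in the alignment-based one. Of its 31-base words, 14.8% also occur in transcripts of other genes, 105 genes in all. Irak2-203, with 23.2% of its words in 2 other genes, belonged to a gene with a 1.65-fold excess. The mean of that isoform was 0.047 TPM by alignment and 10.8 TPM from the reads. Irak2-206 and Irak2-208 share no such word, and their means went from 20.3 to 77.2 TPM and from 54.9 to 95.3 TPM. The part of shared sequence in either excess was not tested. The coding isoforms of Traf5 summed to 3.40, 6.31 and 8.32 TPM by alignment and 4.16, 8.44 and 9.20 TPM from the reads, so they differed far less.

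**Figure D5:**
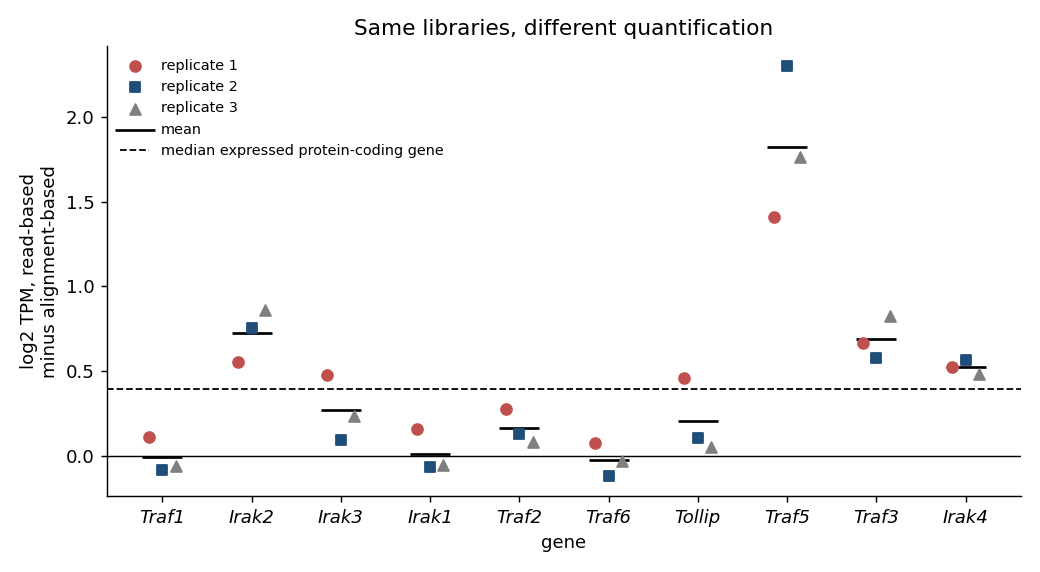
Log2 TPM from the read-based table minus log2 TPM from the alignment-based table, for each gene and library, with bars for means and a dashed line for the median expressed protein-coding gene. Traf5 lies above 1.4 in every library, and the mean of each other gene lies below 0.75.

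For the other 9 genes the mean read-based level was between 0.982-fold (Traf6) and 1.65-fold (Irak2) of the alignment-based one. The leading isoform was the same by both in 5 of 10 genes, Irak1, Irak2, Irak3, Traf2 and Traf5. In the read-based table Traf1 was led by the 386-base Traf1-209, Tollip by Tollip-205, Irak4 by Irak4-201, Traf3 by Traf3-204 and Traf6 by Traf6-203. In 4 of 10 genes the same isoform led in every library of the alignment-based table. Neither of these counts of leading isoforms was set beside a share over all genes.

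Of 65 genes of the wider pathway, 59 passed 1 TPM and 36 exceeded the median gene throughout. Over all protein-coding genes these shares were 42% and 18.5%, and 44% of expressed protein-coding genes exceeded the median gene. The same shares stand beside the counts of each list below. The 6 pathway genes that did not reach 1 TPM in every library were Il1r1, Il18r1, Il18rap, Il1rl1, Sigirr and Irak1bp1. By read-based TPM 62 were expressed, and Il18r1, Il18rap and Irak1bp1 passed there, at 3.89, 5.52 and 1.28 TPM in their lowest library. These 6 were chosen for naming after their values were seen.

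Among 19 receptors, 15 were expressed and 8 exceeded the median gene. Cd40, a receptor that recruits TRAF proteins, was the highest at 434.88, 262.36 and 280.57 TPM, followed by Tlr1 at 207.00, 293.37 and 207.19 TPM. Il1rl1 was the lowest and listed at 0 in all 3 libraries, whereas in the read-based table Il1r1 was the lowest. Of 8 adaptors and other family members, 6 were expressed and 3 exceeded the median gene. Traf7 stood at 112.2 ± 15.6 TPM and Ticam2, an adaptor of Toll-like receptor 4, at 56.7 ± 5.33 TPM (SD, n = 3). Myd88 stood at 17.34, 24.24 and 18.15 TPM, above Traf6 in each library, while Traf4 was at 2.70, 2.14 and 1.73 TPM. Irak1bp1 was the lowest, at 0.07 ± 0.06 TPM, but its read-based values were 1.28, 2.64 and 1.95 TPM, and there Sigirr was the lowest.

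All 12 ubiquitin ligases and conjugating enzymes were expressed and 9 exceeded the median gene. Birc3, a ligase that TRAF2 and TRAF1 bring to receptors, stood at 216.31, 225.28 and 192.71 TPM, and Peli1, a ligase that modifies IRAK proteins, at 161.4 ± 17.2 TPM (SD, n = 3). Peli3 was the lowest at 1.83 ± 0.10 TPM. All 12 downstream kinases were expressed and 8 exceeded the median gene. Ikbke, a kinase that phosphorylates interferon regulatory factors, stood far above the rest at 1935.16, 2076.70 and 1508.32 TPM. Ikbkb, the IKK kinase of the NF-kB route, stood at 174.0 ± 21 TPM, and Tab1 was the lowest at 5.65 ± 1.31 TPM (SD, n = 3).

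Of 14 TRAF-binding regulators and deubiquitinases all were expressed and 8 exceeded the median gene. Trafd1, an inhibitor of Toll-like receptor signalling, stood at 286.19, 365.93 and 239.76 TPM. Tnfaip3, which encodes the ubiquitin-editing enzyme A20 and restrains TRAF6 signalling, stood at 259.33, 165.60 and 184.83 TPM, and Tifab was the lowest at 1.82 ± 0.28 TPM. The median log2 level of all 65 genes was 4.31, beside 4.46 for the 10 IRAK, TRAF and Tollip genes and 3.58 for expressed protein-coding genes.

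By the root mean square difference of log2(TPM + 0.1) over the 3 libraries, among the 65 pathway genes and the other 9 members, the genes nearest to Irak2 were Birc3 (0.18), Tnfrsf1b (0.24) and Tnfaip3 (0.30). Nearest to Irak3 were Rbck1 (0.27), Ticam2 (0.32) and Usp25 (0.35). Nearest to Traf1 were Trafd1 (0.19), Cd40 (0.37) and Tlr1 (0.37). This measure reads level and library together over 3 libraries of 1 condition.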

How the data were processed

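For each of 3 libraries the authors deposited gene and transcript tables of expected (estimated) counts and TPM, with bounds for TPM, in RSEM's column layout per the file headers (alignment-based), and a transcript table of estimated counts and TPM in the columns kallisto writes (read-based). Per the deposited notes the build is mm10 with GENCODE M21. Program versions, settings, strand and the bounds' level were not given in the sources used here. The bounds belong to a posterior estimate, and in 7 of 30 cases of gene and library the TPM lay above them.

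Expressed means at least 1 TPM in every library. CPM divides expected counts, rounded to whole numbers, by the library total. Spread used log2(CPM + 0.5), and pairs used log2(TPM + 0.1). Pairs were tested by exact two-sided sign-flip over libraries, checked on made-up differences. The SD and the offset of replicate 1 were checked on simulated counts. Python 3.11.15, numpy 2.4.6, pandas 2.3.3 and R 4.3.3 with edgeR 4.0.16 (TMM) and DESeq2 1.42.0 (size factors) were used. Junction sequences came from the GENCODE M21 sequences of the annotated transcripts, placed by the mm10 exon positions of that annotation.

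Named genes were the 10 members, and in each of 5 pathway lists the 2 with the highest mean TPM and the 1 with the lowest, with Traf4, Traf7, Myd88 and Tnfaip3. The 3 genes nearest to Irak2, Irak3 and Traf1, leading isoforms and retained_intron isoforms of at least 10% were also named. Other isoforms named were chosen after their values were seen. Members and lists were chosen with earlier results of these data known. Alternatives were other pseudocounts, thresholds, scalings, the read-based tables, coding isoforms only and leaving out each library.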

Additional observations from a re-analysis of the deposited data

How the results depend on the processing

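Traf6 minus Traf3 turned from 0.08 to -0.63 with read-based TPM and to -1.18 with protein-coding isoforms only, and Traf2 minus Traf5 turned to -0.94 with read-based TPM. The other 6 pairs kept their sign under all alternatives run, though not always their size. Protein-coding isoforms only gave 1.93 for Irak2 minus Irak1, 3.10 for Irak2 minus Irak4 and 1.75 for Irak3 minus Irak4. The same setting gave 1.35 for Irak2 minus Irak3, 2.80 for Traf1 minus Traf2 and -0.58 for Tollip minus Irak1. Read-based TPM gave 3.14 for Irak2 minus Irak1 and 2.22 for Irak2 minus Irak3. The number of pathway genes above the median gene was 59 in place of 36 when the median was taken over all protein-coding genes without a filter. Of those protein-coding genes, 42% reached 1 TPM in every library. The median SD of the 10 genes moved from 0.145 to 0.218 on log2(TPM + 0.1) and 0.194 with read-based counts, and leaving out a library gave 0.101 to 0.172. The number of genes above the median gene's SD moved from 2 to 4 with a CPM prior of 2. It was 1 on log2(TPM + 0.1) and 4 with read-based counts. With no count filter it was 10, which was fixed in advance because the median gene's SD was then 0. Leaving out a library gave 3 to 4, with 4 without replicate 1. The median retained-intron share moved from 42.0% to 28.8% of expected counts and 49.0% in the read-based table, and the leading isoform was the same in 5 of 10 genes there. Apart from the missing count filter, the causes of these moves were not tested. For single genes, 71 of the SD values and 32 of the intron shares stayed within the spread, while 19 and 13 moved. No paired analysis was possible because all libraries belong to 1 condition. Low counts, 272 to 426 for Irak4 and 278 to 456 for Traf5, limit isoform shares, and 3 libraries limit every exact test to p = 0.25.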
